A study of Mus musculus with 13 samples.

Results

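The medulla of the thymus holds epithelial cells (mTECs) that show developing T cells the proteins of other tissues. Some mTECs take on the gene programme of a peripheral cell type, and these are called mimetic cells. Microfold (M) cells of the gut lift antigen across the epithelium, their differentiation is driven by RANK signalling through NF-kB and by the transcription factor Spi-B, and their thymic mimics share these genes. Corneocytes are the dead outer cells of the skin, built from a cornified envelope of cross-linked proteins, and the thymic medulla holds a keratinizing counterpart in which late mTECs end. Described here are 10 genes of these programmes, chosen by name from general knowledge of both cell types, with earlier results of these data known. The microfold-like genes are Spib, Gp2, Ccl20, Ccl9 and Tnfaip2, and the corneocyte-like genes are Ivl, Sbsn, Krtdap, Dmkn and Lypd3. All 10 were found once each among the 53379 identifiers of the count table, and all 10 were among the 19984 genes kept by the filter on low counts.

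The libraries are bulk RNA-seq of CD45- thymic stroma cells, that is, of the thymus without cells bearing the leukocyte antigen CD45, from wild-type C57BL/6 mice aged 2 months. Mice were at steady state, given PBS (n = 4), or were examined 1, 4 or 7 days after sublethal total body irradiation (TBI; n = 3 each). The steady-state libraries are PBS controls of the days after TBI, and they are named here PBS day 1, PBS day 4, and PBS day 7 replicates 1 and 2. Whether libraries of a condition came from separate mice is not stated in the labels. The methods of the study refer to the bulk counts as those of biological replicates. The p-values measure the spread between these libraries, which may be technical in part.

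Total counts ran from 15721866 to 52056896 per library, and the lowest count of any of the 10 genes in any library was 23. Values are CPM, counts scaled to the size of the library, after TMM normalization. As a check of the tissue, Cdh1, which encodes the epithelial adhesion protein E-cadherin, stood at 49.1 to 250 CPM in all 13 libraries. Epcam, another epithelial gene, was far lower beside Cdh1 in 3 libraries: the ratio of Cdh1 to Epcam was 12.6 in day 1 replicate 1, 8.34 in day 4 replicate 2 and 8.01 in day 4 replicate 3, against 1.48 to 3.75 in the other 10. In the same 3 libraries the quintile of genes with the longest exons was low relative to the shortest, by a log2 difference of -0.65, -0.30 and -0.28, with day 7 replicate 1 next at -0.23 and the other libraries between -0.16 and 0.56. Results that rest on these libraries are given with and without them. A gene was called changed at an adjusted p of 0.05 or less in edgeR's quasi-likelihood test, adjusted over all genes tested.

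The start sites are shown first, for the motifs that genes of each group share there. The sequences are RefSeq promoters of GRCm38.p6, read 5′ to 3′ on the strand of the gene, with the 150 bases before the annotated start and the first 10 bases after it. Among the corneocyte-like genes, capitals mark the AP-1 motif TGANTCA, which is its own reverse complement apart from the middle base. AP-1 factors are known regulators of late keratinocyte genes.
Ivl (involucrin, a precursor protein of the cornified envelope; chr3:92573726-92573885, minus strand): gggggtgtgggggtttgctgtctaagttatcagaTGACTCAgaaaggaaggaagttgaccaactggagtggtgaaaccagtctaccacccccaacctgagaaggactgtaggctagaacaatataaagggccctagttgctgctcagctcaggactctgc
Sbsn (suprabasin, a secreted protein of upper epidermal layers; chr7:30751321-30751480, plus strand): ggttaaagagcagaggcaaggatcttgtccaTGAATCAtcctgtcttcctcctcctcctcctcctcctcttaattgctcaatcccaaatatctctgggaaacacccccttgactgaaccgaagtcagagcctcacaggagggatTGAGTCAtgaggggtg
Krtdap (keratinocyte differentiation-associated protein, a small secreted peptide; chr7:30787755-30787914, plus strand): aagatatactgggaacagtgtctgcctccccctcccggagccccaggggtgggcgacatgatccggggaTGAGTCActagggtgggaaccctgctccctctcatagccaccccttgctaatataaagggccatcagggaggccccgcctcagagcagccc
Dmkn (dermokine, a secreted epidermal protein; chr7:30763606-30763765, plus strand): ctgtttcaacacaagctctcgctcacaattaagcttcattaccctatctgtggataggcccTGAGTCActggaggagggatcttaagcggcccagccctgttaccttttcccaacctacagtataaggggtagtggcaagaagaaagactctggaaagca
Lypd3 (a GPI-anchored surface protein of the Ly6/uPAR family; chr7:24636420-24636579, plus strand): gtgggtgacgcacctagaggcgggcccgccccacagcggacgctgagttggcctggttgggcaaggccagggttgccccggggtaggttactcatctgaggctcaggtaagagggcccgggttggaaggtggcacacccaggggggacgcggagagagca
Of the 5 genes, 4 held the motif in the 300-base window of the table (250 bases before the start and 50 after), at position -116 in Ivl, -81 in Krtdap, -89 in Dmkn, and -119 and -6 in Sbsn (Dmkn also had it at -82 from a further start), counted from the annotated start. Lypd3 held none. Among the microfold-like genes only Ccl9 held it, at -53. By comparison, 7.81% of all 32851 promoters of this length and 8.97% of the 27025 genes with one held it on either strand.

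Among the microfold-like genes, capitals mark matches to the NF-kB consensus, searched on both strands.
Spib (the ETS-family transcription factor Spi-B; chr7:44532062-44532221, minus strand): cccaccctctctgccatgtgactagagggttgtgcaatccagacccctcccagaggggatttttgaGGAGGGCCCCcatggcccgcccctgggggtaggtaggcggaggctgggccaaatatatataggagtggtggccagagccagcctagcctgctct
Ccl20 (the ligand of CCR6, which draws B cells and dendritic cells to the epithelium over lymphoid tissue; chr1:83116616-83116775, plus strand): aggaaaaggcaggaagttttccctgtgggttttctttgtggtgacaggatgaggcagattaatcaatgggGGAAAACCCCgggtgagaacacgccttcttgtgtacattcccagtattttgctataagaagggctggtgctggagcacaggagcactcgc
Spib, Ccl20, Ccl9 and Tnfaip2 held a match and Gp2 did not, so that 4 of the 5 microfold-like genes had one. Spib had another at -180, beyond the stretch shown. Of the corneocyte-like genes, Krtdap held a match at -15 and Dmkn held one only at a further start inside the gene. Over all genes the share was 9.55%. The ETS motif GAGGAAGT was in none of the 10 windows and in 3.69% of all genes, and the TATA motif TATAAA was in 4 of the 10 (Gp2, Ccl9, Ivl, Krtdap) and in 15.7% of all genes. A match of letters is a description of the window and not a binding site, and the count table holds no binding data.

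Sbsn, Dmkn and Krtdap are neighbours on chromosome 7 and are all read on the plus strand. In GRCm38 coordinates Sbsn lies at chr7:30751471-30756134, Dmkn at chr7:30763756-30781063 and Krtdap at chr7:30787896-30791097. Lypd3 (chr7:24636550-24641118, plus strand), Spib (chr7:44525993-44532071, minus strand) and Gp2 (chr7:119442537-119459285, minus strand) are elsewhere on the same chromosome. Ivl is at chr3:92570902-92573735 on the minus strand, Ccl20 at chr1:83116766-83119167 on the plus strand, Ccl9 at chr11:83572919-83578636 on the minus strand and Tnfaip2 at chr12:111442469-111455018 on the plus strand. Of the exonic bases, 13.6% of Lypd3, 7.70% of Sbsn and 6.30% of Tnfaip2 overlap another gene (Gm26550, Tmem147os and Gm40578), and reads there could be counted for either gene or for neither.

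Per kilobase of exon, Gp2 stood highest at steady state among the 10, at a mean of 73.4 CPM per kb (range 33.3 to 132), followed by Dmkn at 51.4 (35.2 to 75.6). Krtdap (28.2), Spib (26.4) and Ccl20 (24.3) came next, Ccl9 (11.7), Tnfaip2 (11.7), Lypd3 (6.79) and Sbsn (4.63) were lower, and Ivl was lowest at 2.21. The ranges over the 4 libraries of all neighbours in this order overlapped. On day 7 the order had Dmkn first at a mean of 58.2 CPM per kb and Gp2 second at 33.4, with Ivl again lowest at 0.75.

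The steady-state libraries differed widely from each other, and for most of the 10 genes in the same way. The highest library was above the lowest by 15.8-fold for Ivl, 8.11-fold for Ccl20, 7.31-fold for Ccl9, 5.66-fold for Spib and 3.96-fold for Gp2, but by 1.41-fold for Sbsn and 1.68-fold for Tnfaip2. PBS day 1 and PBS day 7 replicate 1 were the upper pair for Spib, Gp2, Ccl20, Ivl, Krtdap and Lypd3, and they were also the upper pair for Cdh1 (230 and 168 CPM, against 68.7 and 67.7 in PBS day 4 and PBS day 7 replicate 2). Fewer cells of a type and less RNA per cell cannot be told apart in such bulk libraries. For Tnfaip2 and Sbsn the libraries of day 1 were further apart (5.28-fold and 1.67-fold) than those at steady state.

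None of the 10 genes was called changed against steady state on day 1, day 4 or day 7. Over all genes tested, 2.35% were called on day 1, 0.29% on day 4 and 0.005% (1 gene) on day 7. At an unadjusted p under 0.05 in edgeR, 4, 3 and 6 of the 10 passed on days 1, 4 and 7. Of the 19984 genes tested, 3444, 2602 and 2691 passed it. DESeq2 called 0, 0 and 3 of the 10, and 1399, 645 and 1081 of all genes. The groups nevertheless sat on different sides on day 1: all 5 corneocyte-like genes had a fold change above 0, with a median log2 fold change of 0.80, and 4 of the 5 microfold-like genes had a fold change below 0, with a median of -0.60 (all genes, -0.10). On day 4 the medians were 0.37 and -0.42 (all genes, -0.13). On day 7 both were below 0, at -1.09 for the corneocyte-like and -1.65 for the microfold-like genes (all genes, 0.00). These 3 comparisons share the steady-state libraries. With each library left out in turn, the day 1 log2 fold change rose as far as -0.14 for Spib, -0.10 for Gp2, 0.05 for Ccl20 and 0.32 for Ccl9. It fell as far as -0.13 for Ivl and stayed above 0 for Sbsn, Krtdap, Dmkn, Lypd3 and Tnfaip2.

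**Figure D1:**
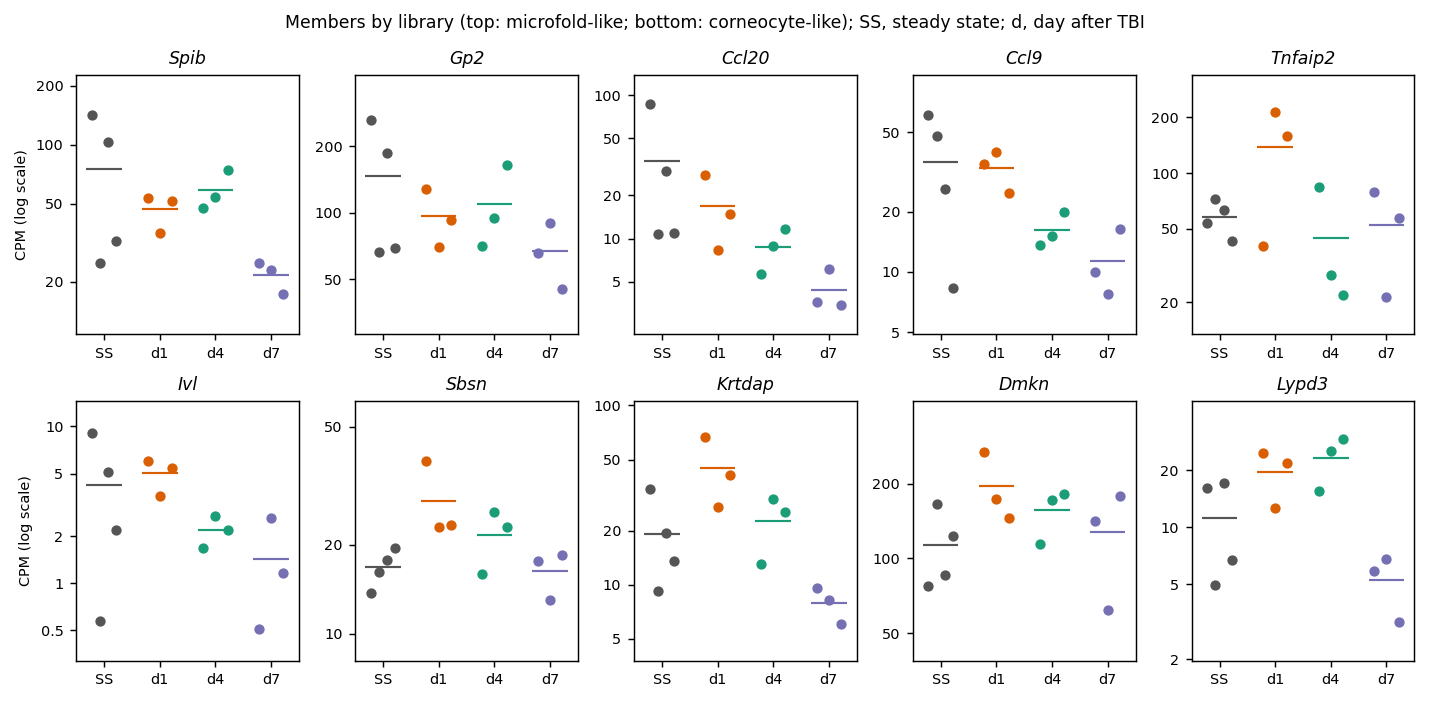
CPM of each gene in each of the 13 libraries (points, log axis with its own range in each panel; lines, means of a condition), microfold-like genes above and corneocyte-like genes below, at steady state (SS) and on days 1, 4 and 7 after TBI. The day 7 points of Spib (17.3 to 24.9 CPM) and Ccl20 (3.44 to 6.15 CPM) lie below all steady-state points, and those of Krtdap (6.05 to 9.58 CPM) and Lypd3 (3.15 to 6.78 CPM) lie below all day 1 and day 4 points.

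Of the microfold-like genes, Ccl20 had the lowest level on day 7 relative to steady state. Its CPM was 87.0, 10.7, 29.7 and 10.9 in PBS day 1, PBS day 4, and PBS day 7 replicates 1 and 2. It was 27.7, 8.36 and 14.98 in day 1 replicates 1 to 3, 5.68, 8.85 and 11.6 on day 4, and 3.63, 6.15 and 3.44 on day 7. Every day 7 library was below every steady-state and every day 1 library, although the lower pair of steady-state libraries lay inside the day 4 range. The log2 fold change was -1.02 ± 0.67 (SE) on day 1, -1.98 ± 0.69 on day 4 and -2.97 ± 0.73 on day 7 (95% interval -4.55 to -1.40), with an adjusted p of 0.117 on day 7. Without PBS day 1, the library with the most Ccl20, it was -1.97 on day 7.

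Spib showed its day 7 level against a similarly wide control. The CPM was 142, 25.1, 103 and 32.3 in the steady-state libraries in the same order. It was 53.4, 35.5 and 51.5 on day 1, 47.6, 54.2 and 74.0 on day 4, and 24.9, 22.9 and 17.3 on day 7. All 3 day 7 libraries lay below the other 10, the nearest being PBS day 4 at 25.1. On day 7 the log2 fold change was -1.80 ± 0.51 (SE; 95% interval -2.91 to -0.69; adjusted p = 0.136). Over all genes, 4.67% had every day 7 library below every steady-state library, as Spib and Ccl20 did.

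Both genes crossed the threshold on day 7 under some other settings. Without PBS day 4, in which both were low, the adjusted p was 0.0472 for Spib and 0.0479 for Ccl20. Without the filter it was 0.0345 and 0.014, and in DESeq2 it was 0.0165 and 0.00132. DESeq2 also called Ccl9 (0.0374), and it called 1081 genes in this comparison where edgeR called 1. Over all genes, edgeR called 220 of 19791 there without PBS day 4 and 627 of 37877 without the filter.

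Gp2, a receptor on the surface of M cells that binds bacteria, was at 264, 66.6, 186 and 69.5 CPM at steady state and at 65.7, 89.7 and 44.9 CPM on day 7. On day 1 it was at 128, 69.6 and 92.5 CPM, and on day 4 at 70.5, 94.9 and 164 CPM. The conditions overlapped on every day, and the log2 fold change was -0.60 ± 0.48 (SE), -0.42 ± 0.48 and -1.14 ± 0.49 on days 1, 4 and 7.

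Ccl9, a CC chemokine made in the follicle-associated epithelium where M cells lie, was at 60.6, 47.6, 26.0 and 8.28 CPM at steady state. It was at 34.6, 39.8 and 24.8 CPM on day 1, 13.6, 15.2 and 19.98 CPM on day 4, and 9.95, 7.78 and 16.3 CPM on day 7. PBS day 7 replicate 2 lay as low as day 7, so the comparisons with steady state overlapped, whereas day 4 and day 7 lay wholly below day 1, as they did for 13.7% and 14.8% of all genes. Against steady state the log2 fold change was -0.11 ± 0.50 (SE) on day 1, -1.13 ± 0.51 on day 4 and -1.65 ± 0.52 on day 7. Macrophages and neutrophils can also express Ccl9. The 7 macrophage markers summed to 28.4 to 143 CPM at steady state, 48.2 to 92.8 on day 1, 36.3 to 60.8 on day 4 and 18.7 to 139 on day 7, and the 6 neutrophil markers to 4.50 to 26.1, 16.8 to 38.1, 3.74 to 6.16 and 1.27 to 6.86. The part of these cells in the level of Ccl9 was not tested.

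Tnfaip2, an M cell gene that takes part in forming membrane tubes, stood apart from the other microfold-like genes. Its CPM was 54.0, 72.3, 63.1 and 43.0 at steady state, 40.4, 213 and 159 on day 1, 83.8, 28.0 and 21.9 on day 4, and 78.5, 21.4 and 57.1 on day 7. Day 1 replicates 2 and 3 were above all other libraries, while day 1 replicate 1 was below all 4 at steady state. On day 1 the log2 fold change was 1.24 ± 0.57 (SE; 95% interval 0.01 to 2.48; adjusted p = 0.286). Endothelial and myeloid cells also express it: the sum of the 4 endothelial markers was highest in day 1 replicate 2 (856 CPM), day 4 replicate 1 (809) and day 1 replicate 3 (716), the libraries in which Tnfaip2 was highest, and 460 to 611 CPM in the others, among them day 7 replicate 1 with Tnfaip2 at 78.5 CPM. Of these markers only Plvap was highest there (508, 348 and 344 CPM, against 21.5 to 177 elsewhere). Pecam1 was highest in day 1 replicate 1 (432 CPM), Cdh5 in day 4 replicate 3 (57.3) and Cldn5 in day 7 replicate 2 (132). Day 1 replicate 2, day 4 replicate 1 and day 1 replicate 3 also had the steepest rise of levels with GC content. Between the outer quintiles of genes it was 0.30, 0.21 and 0.26 log2, against -0.55 to 0.05 elsewhere. With each library's trend with GC content and length removed, the log2 fold change on day 1 was 1.24 ± 0.53 (SE), and the part of endothelial cells was not tested.

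Spib is also a gene of B cells and plasmacytoid dendritic cells. The 6 B cell markers summed to 3.93 to 10.4 CPM at steady state, 5.11 to 10.6 on day 1, 2.84 to 4.50 on day 4 and 2.38 to 15.6 on day 7, where the highest sum and the lowest were in libraries with nearly the same Spib (22.9 and 24.9 CPM). Siglech, which defines plasmacytoid dendritic cells, was at 1.58 to 5.53 CPM at steady state. In day 4 replicates 1 to 3 it was at 0, 0 and 0.09 CPM, where Spib was at 47.6, 54.2 and 74.0 CPM. In day 7 replicates 1 to 3 it was at 0, 1.37 and 0.41 CPM, where Spib was at 24.9, 22.9 and 17.3 CPM. Ccr9, another of the 5 markers of these cells, was at 25.5 to 98.0 CPM at steady state. It was at 17.4, 328 and 134 CPM in day 7 replicates 1 to 3. The 5 markers summed to 144 to 210 CPM at steady state and 549.5 to 1222 on day 1. They summed to 124 to 150 CPM on day 4 and 154 to 450 on day 7. On day 1 most of the sum was Bst2, which interferon also induces. The part of B cells and plasmacytoid dendritic cells in the level of Spib was not tested.

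Among the 5 corneocyte-like genes, Krtdap and Lypd3 were called lower on day 7 than on day 1, and Lypd3 lower on day 7 than on day 4. None of the microfold-like genes was called between days after TBI. An unadjusted p of 0.05 in edgeR was passed by 3 of the 5 between day 7 and day 1, and by 1 between day 7 and day 4. Of the 19984 genes tested, 4784 and 3735 passed it. DESeq2 called 2 and 0 of the 5, and 2940 and 1919 of all genes. Over all genes, edgeR called 8.13% between day 7 and day 1 (4.45% lower) and 3.9% between day 7 and day 4 (1.13% lower). All 10 genes had a fold change below 0 between day 7 and day 1, with a median log2 fold change of -1.81 for the corneocyte-like and -1.40 for the microfold-like genes, against 0.05 for all genes. Between day 4 and day 1 none of the 10 was called in either tool, where 1.43% of all genes were in edgeR. There 1 (Tnfaip2) passed an unadjusted p of 0.05, as did 2729 of the 19984 genes.

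Krtdap was at 34.3, 9.28, 19.6 and 13.5 CPM at steady state, 66.3, 27.4 and 41.1 CPM on day 1, 13.04, 30.1 and 25.4 CPM on day 4, and 9.58, 8.28 and 6.05 CPM on day 7. Day 1 and day 4 each lay above day 7 without overlap, and day 4 overlapped day 1. From day 1 to day 7 it fell by 2.49 on the log2 scale (SE 0.50; 95% interval -3.56 to -1.42; adjusted p = 0.0114), from a mean of 44.9 ± 19.8 CPM (SD, n = 3) to 7.97 ± 1.79 CPM (n = 3). The call held when any of the 13 libraries was left out (adjusted p = 0.00491 to 0.0493). Against steady state the log2 fold change was 1.23 ± 0.44 (SE) on day 1, 0.26 ± 0.44 on day 4 and -1.27 ± 0.46 on day 7, each short of the threshold (adjusted p = 0.173, 0.809 and 0.218).

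Lypd3 was at 16.1, 4.93, 17.1 and 6.73 CPM at steady state, 24.5, 12.6 and 21.8 CPM on day 1, 15.4, 25.3 and 29.0 CPM on day 4, and 5.83, 6.78 and 3.15 CPM on day 7. Day 7 lay below days 1 and 4 without overlap, but not below steady state. Over all genes, 14.0% lay below day 4 in this way. From day 1 to day 7 it fell by 1.90 on the log2 scale (SE 0.49; adjusted p = 0.0339), and from day 4 to day 7 it fell by 2.15 (SE 0.50; adjusted p = 0.033). Both calls were close to the threshold, and both were lost with a covariate for the tag prefix of the columns (adjusted p = 0.0836 and 0.0551). The first was lost without day 1 replicate 1 (adjusted p = 0.102), day 1 replicate 3 (0.0872) or any day 7 library (0.0569, 0.0695 and 0.109 for replicates 1 to 3). The second was lost without day 4 replicate 2 (0.13), day 4 replicate 3 (0.127), day 7 replicate 2 (0.0852), day 7 replicate 3 (0.107) or day 1 replicate 3 (0.0508).

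Without the 3 libraries in which Epcam was low beside Cdh1, none of the 3 calls remained. Day 7 then stood at -2.12 relative to day 1 on the log2 scale for Krtdap (adjusted p = 0.0704) and at -1.73 for Lypd3 (0.135), and that of Lypd3 between day 7 and day 4, where day 4 kept 1 library assumed to vary like the others, was -1.56 (0.631). The calls over all genes went from 1625 to 176 and from 779 to 8 in the same fits. With the trends with GC content and length removed and all libraries kept, Krtdap was at -2.32 (adjusted p = 0.0078) and Lypd3 at -1.87 (0.0339) and -2.15 (0.0289).

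**Figure D2:**
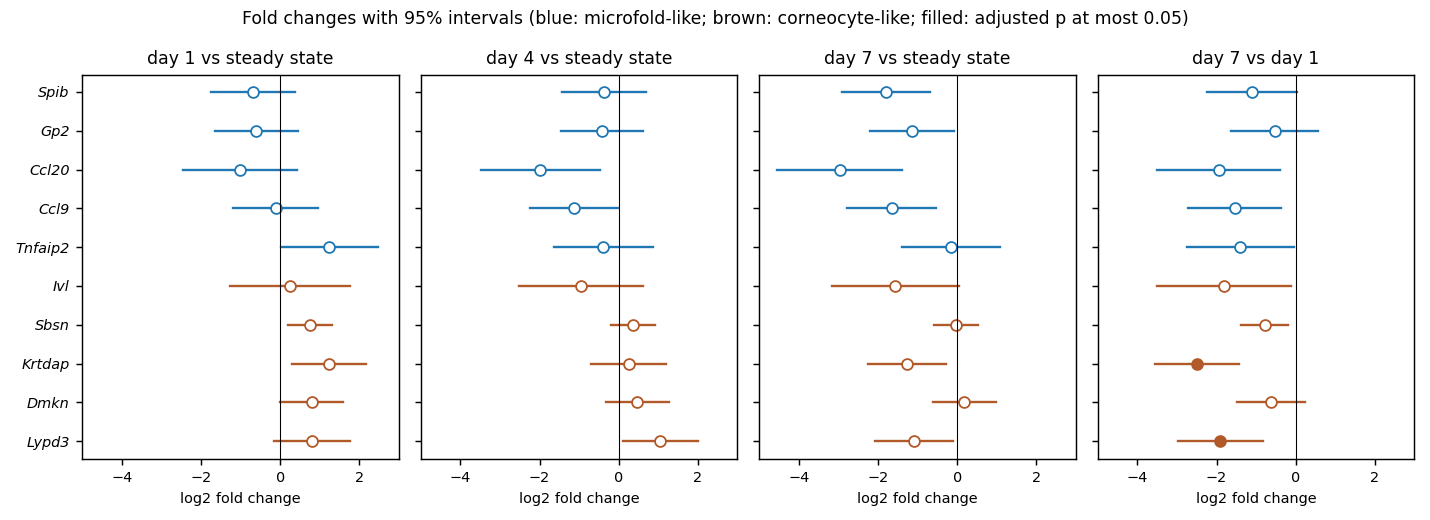
Log2 fold changes (points) with 95% intervals (lines) of the 10 genes on days 1, 4 and 7 relative to steady state and on day 7 relative to day 1. Filled points passed an adjusted p of 0.05: Krtdap (-2.49) and Lypd3 (-1.90) between day 7 and day 1, and none against steady state.

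Sbsn, whose steady-state libraries were the closest together of the 10 genes, was at 13.8, 16.1, 17.7 and 19.5 CPM there and at 38.2, 22.9 and 23.3 CPM on day 1, above all of them. Over all genes, 7.25% had every day 1 library above every steady-state library. The log2 fold change was 0.75 ± 0.26 (SE; 95% interval 0.20 to 1.301; adjusted p = 0.159). On day 4 Sbsn was at 15.9, 25.8 and 23.0 CPM, and on day 7 at 17.7, 12.99 and 18.4 CPM, within the steady-state range but for 1 library, with a log2 fold change of -0.03 ± 0.26. Its distance between day 7 and day 1 was -0.78 ± 0.28 (adjusted p = 0.102), and DESeq2 (0.0434) and a fit with a covariate for the tag prefix of the columns (0.0451) called it. Over all genes, these called 2940 and 1416 of 19984.

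Dmkn, next to Sbsn on the chromosome, was at 77.2, 166, 85.5 and 123 CPM at steady state, 269, 174 and 145 on day 1, 114, 171 and 182 on day 4, and 142, 61.9 and 179 on day 7. The conditions overlapped on every day, and the log2 fold change on day 1 was 0.80 ± 0.37 (SE; adjusted p = 0.289). Unlike the other corneocyte-like genes but Sbsn, it was lowest at steady state in the library with the most Cdh1. Mesothelial cells also express Dmkn, and their 5 markers summed to 555 CPM in that library and 2318 to 4181 in the other 3, to 1425 to 1776 on day 1, 2580 to 3584 on day 4 and 1905 to 3736 on day 7. The part of mesothelial cells was not tested.

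Ivl was the least abundant of the 10, at 9.10, 0.58, 5.12 and 2.18 CPM at steady state and 6.02, 3.58 and 5.47 CPM on day 1. It was at 1.68, 2.69 and 2.18 CPM on day 4 and 0.51, 2.62 and 1.17 CPM on day 7, below all day 1 libraries on both days. Relative to day 1, day 7 stood at -1.81 ± 0.78 on the log2 scale (SE; adjusted p = 0.176).

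Between day 7 and day 1 every library was lower on day 7 for 7 of the 10 genes: Spib, Ccl20, Ccl9, Ivl, Sbsn, Krtdap and Lypd3. The same held for 14.8% of all genes. Of those short of the threshold, the log2 fold change was -1.95 ± 0.72 (SE) for Ccl20, -1.54 ± 0.54 for Ccl9 and -1.11 ± 0.53 for Spib. Ccl20 was called without PBS day 1 (adjusted p = 0.0292) and Ccl9 without PBS day 7 replicate 2 (0.0274). Over all genes, 2030 of 19653 and 1601 of 19922 were called in these fits. Krtdap was at -1.52 ± 0.48 between day 7 and day 4 (adjusted p = 0.0989), and was called there without PBS day 1 (0.0439). That fit called 1065 of 19653 genes.

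The level of Cdh1 moved between the same days. It was at 176, 190 and 227 CPM on day 1, 250, 204 and 204 CPM on day 4 and 66.6, 62.1 and 49.1 CPM on day 7, and fell by 1.74 on the log2 scale (SE 0.41; adjusted p = 0.0223) from day 1 to day 7. This call was lost without the 3 libraries that stood apart (-1.84; adjusted p = 0.0943), without any 1 library of day 1 (0.0555, 0.0537 and 0.0683 for replicates 1 to 3), without day 7 replicate 2 (0.0686) or 3 (0.0768), and with the tag covariate (-1.30; 0.0585). Relative to Cdh1, Lypd3 was at nearly the same level in every condition: the mean log2 ratio was -3.49 ± 0.29 (SD) at steady state, -3.35 ± 0.52 on day 1, -3.25 ± 0.63 on day 4 and -3.43 ± 0.33 on day 7. For Krtdap it was -2.73 ± 0.33, -2.21 ± 0.72, -3.31 ± 0.79 and -2.83 ± 0.09. With Epcam as the reference, the level of Lypd3 was less even, at means of -2.72, -1.57, -0.81 and -2.20 in the same order. Its ranges there were -3.23 to -2.36, -2.98 to 0.78, -2.65 to 0.18 and -2.69 to -1.23. Those of Krtdap were -2.45 to -1.41, -1.89 to 2.20, -2.89 to 0.30 and -2.01 to -0.96. For both genes the highest ratios on days 1 and 4 were in libraries low in Epcam. Blood cells moved between these days as well. All 7 thymocyte markers were called higher on day 7 than on day 1 and than on day 4, with summed levels of 163.6 to 537.5 CPM at steady state, 77.6 to 99.3 on day 1, 16.1 to 26.2 on day 4 and 140.5 to 3335 on day 7. The 4 erythroid markers summed to 19580 to 33881, 3867 to 16795, 8.91 to 12.9 and 2556 to 7330 CPM. The CD45 gene Ptprc rose by 4.39 on the log2 scale (SE 0.92; adjusted p = 0.0143) from day 1 to day 7, and the part of these cells in the results was not tested. Among the day 7 libraries Ptprc was at 21.6, 606 and 224 CPM in replicates 1 to 3, while Krtdap was at 9.58, 8.28 and 6.05 CPM in the same libraries.

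Relative to Cdh1, most of the microfold-like genes were lower on days 1 and 4 than at steady state. The mean over the 5 genes of log2(CPM + 0.5), less that of Cdh1, was -1.44 to -0.91 in the steady-state libraries, -2.20 to -1.85 on day 1, -3.05 to -2.47 on day 4 and -1.71 to -1.32 on day 7. Days 1 and 4 lay below steady state without overlap, and day 7 overlapped it. Taken singly, Spib, Gp2 and Ccl20 lay below without overlap on day 1 (3 of 5), where 20.3% of all genes did, and these and Ccl9 on day 4 (4 of 5), where 32.7% did. On day 7 Ccl20 alone of the 10 did, at -4.02 to -3.24 against -2.62 to -1.40, and 0.475% of all genes. Tnfaip2 overlapped steady state on each day, and on day 1 nearly in full (-2.11 to 0.17 against -2.08 to 0.07). Gp2 was within 0.20 of Cdh1 in all 4 steady-state libraries (-0.04 to 0.20), at -1.44 to -0.46 on day 1, -1.82 to -0.31 on day 4 and -0.13 to 0.53 on day 7. Spib was at -1.43 to -0.69, -2.40 to -1.71, -2.38 to -1.46 and -1.48 to -1.40. For the corneocyte-like genes the same mean was -3.34 to -2.22 at steady state, -3.07 to -2.11 on day 1, -4.02 to -2.98 on day 4 and -2.60 to -2.22 on day 7, so that only day 4 and day 7 did not overlap. These ratios are descriptions and were not tested. Against Epcam in place of Cdh1, the microfold-like mean ran from -1.36 to 1.75 on day 1 and -1.73 to 0.50 on day 4, on both sides of the steady-state range of -0.80 to 0.12, with the 3 libraries low in Epcam at the upper end.

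**Figure D3:**
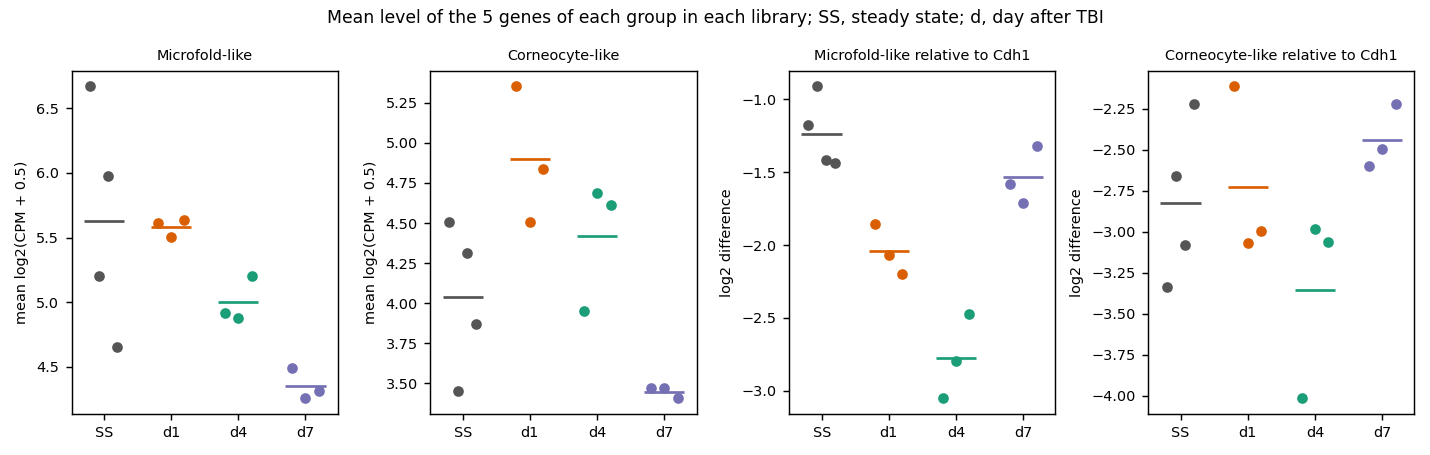
Mean of log2(CPM + 0.5) over the 5 microfold-like and the 5 corneocyte-like genes in each library (points; lines, means of a condition), as such and after subtraction of the log2 level of Cdh1. Relative to Cdh1 the microfold-like mean lay at -3.05 to -2.47 on day 4 and at -1.44 to -0.91 at steady state, and each panel has its own range.

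Set against each other, the microfold-like mean exceeded the corneocyte-like mean by 0.78 to 2.16 log2 in the steady-state libraries, 0.26 to 1.00 on day 1, 0.19 to 0.97 on day 4 and 0.79 to 1.02 on day 7. The 2 lowest differences after TBI were in day 4 replicate 2 (0.19) and day 1 replicate 1 (0.26), both among the 3 libraries that stood apart, and the ranges of all conditions overlapped.

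The other genes of the M cell programme and of RANK signalling gave no call. In a list of 10 further M cell genes, among them the transcription factors Sox8 and Esrrg, 0 passed the threshold in any of the 6 comparisons. On day 7 relative to steady state, 9 of the 10 had a fold change below 0 (median log2 fold change -0.64, all genes 0.00). Some of the 10 stood far above Gp2 (mean 147 CPM) at steady state, as Clu at 2004 CPM and Anxa5 at 926 CPM. The part of other cells in the levels of this list was not tested. At an unadjusted p under 0.05, 0 to 3 of the 10 passed per comparison, where 2602 to 4784 of the 19984 genes did. DESeq2 called 2 lower in each comparison with day 7. Other settings also called some lower: up to 2 between day 7 and day 1 (2 without PBS day 1, 1 without PBS day 4, PBS day 7 replicate 2 or day 4 replicate 1), up to 2 between day 7 and day 4 (2 without PBS day 1), 1 on day 7 against steady state (without PBS day 4 or without the filter) and 1, Sox8, on day 1 with the tag covariate. The closest was Esrrg between day 7 and day 1, at -1.78 ± 0.52 (SE; adjusted p = 0.0511). Sox8 was at 13.4 to 16.9 CPM at steady state and 2.32, 8.54 and 8.17 CPM on day 1, below it without overlap, as were 8.56% of all genes (log2 fold change -1.25 ± 0.43; adjusted p = 0.162). In a list of 7 genes of the RANK axis 0 passed either, with 0 to 3 at an unadjusted p under 0.05 and 1 called lower on day 7 against steady state by DESeq2 and without the filter. With the tag covariate, Traf6 and Nfkb2 were called higher on day 7 than on days 1 and 4, and Nfkb2 lower on day 1 than at steady state; these genes were chosen after their values were seen. Tnfrsf11a, which encodes RANK, was at 47.2, 5.90, 21.2 and 7.65 CPM at steady state and 5.13, 3.01 and 4.15 CPM on day 7 (log2 fold change -2.32 ± 0.72; adjusted p = 0.159). Its ligand gene Tnfsf11 was at 0.39 to 4.19 CPM at steady state and 0.09 to 4.27 CPM after TBI.

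Most of the other listed genes of the cornified envelope and its transcription factors were also lower on day 7 than on day 1. The list of 24 was chosen with earlier results of these data known, and 22 of them passed the filter. Of the 22, 10 were called lower and 0 higher on day 7 than on day 1, where 4.45% of all genes were called lower. The median log2 fold change of the 22 was -1.78, against 0.05 for all genes. Between day 7 and day 4, 5 were called lower, where 1.13% of all genes were. Against steady state 0 were called on any day. There, 1 was called higher on day 1 without PBS day 1, 1 lower on day 7 without PBS day 4, and DESeq2 called 1 higher on day 4 and 8 lower on day 7. The genes named next were chosen after their values were seen. Sprr1a, a small proline-rich envelope protein, fell by 2.32 on the log2 scale (SE 0.47; adjusted p = 0.0129) between day 1 and day 7. Asprv1, a protease that processes filaggrin, fell by 2.94 (SE 0.56; adjusted p = 0.00971), and Klk7, a protease of corneocyte shedding, fell by 2.33 (SE 0.51; adjusted p = 0.0173). The envelope scaffold genes Evpl and Ppl and the surface gene Ly6d had fold changes above 0. The count of 10 was 3 without day 1 replicate 1 and 3 without day 7 replicate 3, 5 without day 1 replicate 3 or day 7 replicate 2, and 0 without the 3 libraries that stood apart. The count of 5 between day 7 and day 4 was 9 without PBS day 1, 8 without PBS day 4, 2 without day 1 replicate 3 or day 7 replicate 1, and 0 without day 4 replicate 2, day 4 replicate 3, day 7 replicate 2 or day 7 replicate 3.

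**Figure D4:**
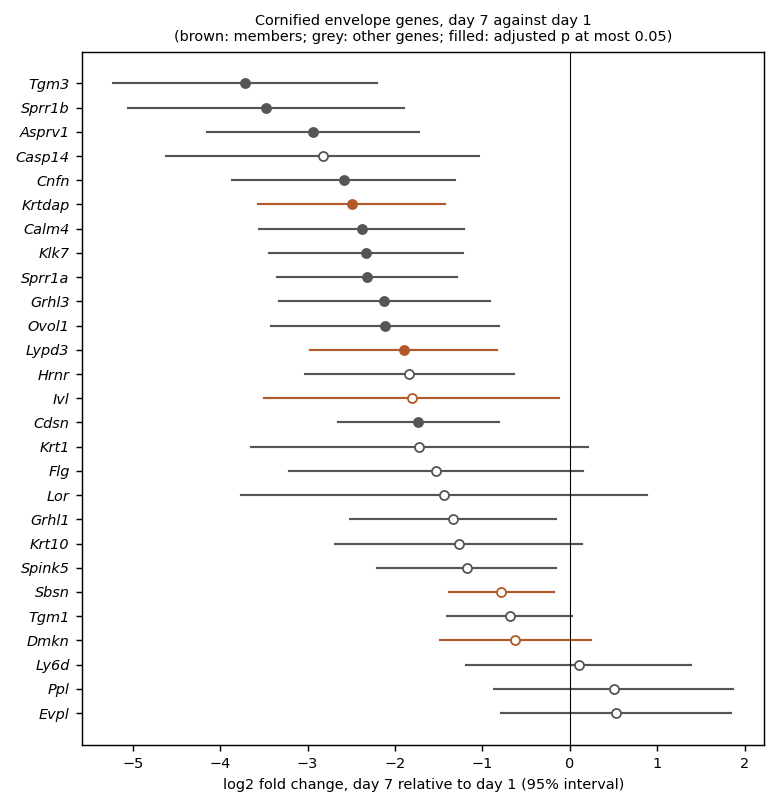
Log2 fold changes with 95% intervals between day 7 and day 1 of the 5 corneocyte-like genes (brown) and the 22 other cornified envelope genes that passed the filter (grey). Filled points passed an adjusted p of 0.05, which were 2 of the 5 and 10 of the 22, all below 0.

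Among 17 epithelial and mTEC genes, 5 were called lower on day 7 than on day 1 and 5 lower than on day 4. Over all genes, 4.45% and 1.13% were called lower in these comparisons. Of the 17, 0 were called higher there and 0 were called against steady state. Against steady state, 2 were called lower on day 1 without day 1 replicate 3, 2 higher on day 4 without PBS day 1, and 1 or 2 lower on day 7 without PBS day 4 or without day 7 replicate 1. Aire, which drives the display of tissue antigens in mTECs, was at 59.0, 3.03, 16.2 and 6.78 CPM at steady state and 1.37, 2.93 and 0.84 CPM on day 7, a log2 fold change of -3.63 ± 0.87 (SE; adjusted p = 0.117). The counts of 5 were 0 without day 7 replicate 2 in both comparisons, 0 without day 7 replicate 3 in the first and 1 in the second, 1 without day 1 replicate 1 or day 1 replicate 2 in the first, 2 lower and 2 higher without day 1 replicate 3 in the first, and 0 without day 4 replicate 2 or day 4 replicate 3 in the second. They were 9 and 8 without PBS day 1, 3 in the second without day 4 replicate 1, and 0 in both without the 3 libraries that stood apart.

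Genes whose levels were most like those of each gene over the 13 libraries were taken from 14590 genes with a mean of at least 1 CPM, by Pearson's r of log2(CPM + 0.5). The 13 points share their libraries and so their depth and composition, and r is given as a description. Spib and Gp2 had the same closest gene, Rassf6 (r = 0.97 and 0.96). It was followed by Extl1 (0.96) and Igsf9 (0.96) for Spib and by Ptgdr (0.96) and Hepacam2 (0.95) for Gp2. Ccl20 was closest to Crhbp (0.98), Pip5k1b (0.96) and Prg2 (0.96). Ccl9 had weaker matches, Tnfrsf9 (0.83), Fam222b (0.83) and Calcb (0.82).

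Tnfaip2 was closest to Clptm1l (0.97), Slc27a3 (0.96) and Foxf1 (0.96). Of the corneocyte-like genes, Krtdap was closest to Ms4a10 (0.97), Lypd2 (0.97) and Klk7 (0.97), and Lypd3 to Aqp4 (0.99), Psapl1 (0.99) and the stress keratin Krt16 (0.98). Ivl was closest to Fhad1 (0.95), Ncf4 (0.94) and Mei4 (0.93). Sbsn was closest to Pias3 (0.95), Slc10a6 (0.93) and Xkr8 (0.91), and Dmkn to Prr13 (0.95), Anxa8 (0.92) and Sdc4 (0.91).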

How the data were processed

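Bulk RNA-seq libraries of CD45- thymic stroma cells were analysed at steady state (4 libraries) and 1, 4 and 7 days after TBI (3 each). Per the submitters' processing notes, reads were handled with Trimmomatic 0.38, STAR 2.7.0e and featureCounts 1.6.3 on GRCm38.p5. The deposited values are raw counts per gene, whole numbers without normalization, made by the authors. Whether counting used strand is not given in the sources used here. The table also holds the exonic length of each gene.

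Conditions came from the labels. The steady-state columns carry no replicate number of the labels and were used as a group. The 10 genes and all gene lists were chosen with earlier results of these data known. All 10 are named. Of each list, counts past the threshold are given. Up to 3 called genes per comparison with steady state were to be named, and there were none. For each of the 10 the 3 genes most like it are named. Other genes named were chosen after their values were seen.

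All 13 libraries entered 1 fit in edgeR 4.0.16 (R 4.3.3) with TMM normalization, filterByExpr by condition (minimum count 10, total 15) and the quasi-likelihood F-test. Genes with a Benjamini-Hochberg adjusted p of 0.05 or less, over 19984 genes, were called. SEs are the log2 fold change over the root of F, and intervals cover 95%. Steps were tested on simulated data for day 1 against steady state (19568 genes), where 43% of genes changed 4-fold and 73% of those changed 8-fold were recovered. No libraries were copies of each other. Between libraries of the same replicate number on different days after TBI, correlations of deviations from the condition means ran from -0.84 to 0.27. With 3 libraries per condition, and some that stood apart, these values cannot show whether replicate numbers pair libraries.

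Total counts ran from 15721866 to 52056896, and counting error was not measured apart from the spread between libraries. The alternatives were DESeq2 1.42.0, RLE normalization, no filter, at least 10 counts in every library, the conditions compared alone, a covariate for the tag prefix of the columns, a replicate block, and each library left out. Added after seeing the data were removal of trends with GC content and length, omission of 3 libraries, and the 9 libraries after TBI without the block. Annotation was GENCODE M21 (GRCm38), and promoters were RefSeq (GRCm38.p6).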

Additional observations from a re-analysis of the deposited data

How the results depend on the processing

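Counts of called genes among the 10 are given for the settings that moved them. The microfold-like count, 0 in every comparison, was 2 on day 7 against steady state without the filter and 3 in DESeq2. Over all genes, 627 of 37877 and 1081 of 19984 were called in these settings, against 1 as reported. Between day 7 and day 1 it was 1 without the filter, 2 in DESeq2 and 3 in the 9 libraries after TBI alone. All-gene calls there were 2004 of 37877, 2940 of 19984 and 2047 of 19176, against 1625 as reported. Between day 7 and day 4 it was 1 in the conditions compared alone (Spib) and 1 in the 9 libraries. All-gene calls there were 394 of 18261 and 957 of 19176, against 779 as reported. The corneocyte-like count between day 7 and day 1, 2 as reported, was 0 without the 3 libraries, 1 with the replicate block (Krtdap) and 3 in DESeq2 (Sbsn added); with the tag family as a covariate it stayed 2, with Sbsn called and Lypd3 lost. Between day 7 and day 4, 1 as reported, it was 2 without the filter and 2 in DESeq2, and 0 with the tag family as a covariate, without the 3 libraries and with the replicate block. Leaving out each library in turn gave microfold-like counts of 0 to 2 on day 7 against steady state and 0 to 1 between day 7 and day 1, and corneocyte-like counts of 1 to 2 between day 7 and day 1 and 0 to 2 between day 7 and day 4. Over all genes, the replicate block called 640 of 19176 between day 7 and day 1 and 0 between day 7 and day 4. The tag covariate called 1416 and 854 of 19984 there. Between day 7 and day 4, 1265 of 37877 were called without the filter and 1919 of 19984 in DESeq2. With each library left out, all-gene calls ran from 0 to 622 on day 7 against steady state. They ran from 472 to 2043 between day 7 and day 1 and from 15 to 1507 between day 7 and day 4. The cause of these shifts was not tested. Some settings themselves bring a larger number of genes or a smaller number of libraries.

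Of 1320 fold changes under alternatives, 27 changed sign, none of a called value. With the tag family as a covariate, Tnfaip2 was at 0.31 and Dmkn at -0.14 on day 7 against steady state. Without the 3 libraries, day 4 against steady state was at 0.53 for Tnfaip2, -0.069 for Sbsn and -0.53 for Krtdap, day 4 against day 1 at -0.21 for Gp2 and -0.17 for Lypd3, and day 7 against day 4 at -0.68 for Tnfaip2, 0.032 for Sbsn and 0.15 for Dmkn. With each library left out in turn, the ranges that crossed 0 were -0.66 to 0.23 for Spib (day 4 against steady state), -0.82 to 0.13 for Gp2 (day 4 against steady state), -0.22 to 0.47 for Gp2 (day 4 against day 1), -1.56 to 0.048 for Ccl20 (day 1 against steady state), -0.44 to 0.32 for Ccl9 (day 1 against steady state), -0.57 to 0.27 for Tnfaip2 (day 7 against steady state), -0.18 to 0.99 for Tnfaip2 (day 7 against day 4), -0.13 to 0.99 for Ivl (day 1 against steady state), -0.12 to 0.15 for Sbsn (day 7 against steady state) and -0.12 to 0.54 for Dmkn (day 7 against steady state).

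No paired analysis was possible against steady state because those columns carry no replicate number of the labels. Between days after TBI, the replicate block changed the calls of Lypd3 (adjusted p = 0.0729 against day 1 and 0.106 against day 4) and no other call reported for the 10 genes. Beside the same 9 libraries without the block, it also lost the calls of Spib (0.102 with it and 0.0287 without), Ccl20 (0.117 and 0.03) and Ccl9 (0.0655 and 0.0191) between day 7 and day 1, and of Spib between day 7 and day 4 (0.106 and 0.0233). All 10 genes had 23 counts or more in every library. Whether depth or the spread between libraries of a condition limited the comparisons was not tested.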
